A study of Mus musculus with 2 samples.

Results

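AP-1 is a DNA-binding complex made of 1 protein of the FOS family and 1 of the JUN family, or of JUN proteins alone. Several of its genes belong to the immediate early genes. The 10 genes described here were a fixed set of names, chosen by function and not by level: the FOS family (Fos, Fosb, Fosl1 and Fosl2), the JUN family (Jun, Junb and Jund), and the immediate early genes Egr1, Ier2 and Atf3. The choice was made with earlier results of these data known. All 10 were found by symbol among 43346 mouse gene entries. They were measured in G1E, an immortalised mouse line of male sex, postnatal stage and age 0 day, labelled Gata1- and erythroid progenitor. GATA1 is the factor that drives red cell maturation, every sample is from this line, and the labels used here name no treatment. Poly(A) RNA was sequenced from both ends in 2 libraries, replicate 1 with 61982634 expected counts (estimated read pairs per gene, summed) and replicate 2 with 80658648, which form 1 group with no other condition. The labels number them as biological replicates but name 1 shared cell sample, so the spread between them may be technical.

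Immediate early genes are switched on within minutes of a growth factor or stress signal, without new protein synthesis, through factors already sitting at their promoters, and their RNAs are usually short-lived. FOS proteins cannot pair with one another and bind DNA only with a JUN partner, whereas JUN proteins can also pair among themselves. In blood cells the group is known from cytokine and stress responses, and in mice loss of Junb from myeloid cells leads to an overgrowth of granulocytes.

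The cells carried erythroid markers: all 10 markers of the line were detected, meaning at 1 TPM or more in both libraries, where TPM is RNA abundance per length, as a part of the library total. Gata1 itself was at 48.0 and 46.6 TPM in replicate 1 and replicate 2, although the line is labelled Gata1-. The altered part of the gene is not given in the sources used here, so a gene-level TPM does not check that label. Gata2 was at 1013 ± 102, Klf1 at 221 ± 38.6 and Hba-a1 at 4164 ± 399.7 (SD, n = 2). Tfrc, the transferrin receptor gene, picked out after its values were seen, differed between the libraries, at 3.42 and 13.8 TPM in replicate 1 and replicate 2. Its expected counts were 821 and 1825, a narrower gap than in TPM, which also depends on the transcript length used. Of 19 markers of macrophages, lymphocytes, fibroblasts, endothelial and pluripotent cells, 18 were below 1 TPM in both libraries, 10 of them with 0 counts in both, which allows up to 3 counts a library. The exception was Ptprcap, a lymphocyte surface-protein gene, at 157 ± 10.7 TPM. The lymphocyte genes Cd3e and Cd79a were below 1 TPM in both libraries, and the summed TPM of each of the other 4 lists was 0.34 or less in either library.

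To show what the RNA measurements address, 3 promoters are printed, each running from 250 bases before to 50 after the gene start that RefSeq gives on GRCm38.p6. They show 1 FOS gene and a pair of JUN genes whose levels lay far apart, with Junb high and Fos and Jun lower. Capitals mark matches, on either strand, to the motifs named after them.
Fos, chr12:85473640-85473939, plus strand: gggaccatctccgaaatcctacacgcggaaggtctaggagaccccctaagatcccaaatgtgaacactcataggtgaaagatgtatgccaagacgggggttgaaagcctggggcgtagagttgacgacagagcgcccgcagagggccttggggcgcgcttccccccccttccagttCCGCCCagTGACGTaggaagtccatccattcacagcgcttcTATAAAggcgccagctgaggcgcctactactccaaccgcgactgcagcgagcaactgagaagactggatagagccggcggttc
Jun, chr4:95052173-95052472, minus strand: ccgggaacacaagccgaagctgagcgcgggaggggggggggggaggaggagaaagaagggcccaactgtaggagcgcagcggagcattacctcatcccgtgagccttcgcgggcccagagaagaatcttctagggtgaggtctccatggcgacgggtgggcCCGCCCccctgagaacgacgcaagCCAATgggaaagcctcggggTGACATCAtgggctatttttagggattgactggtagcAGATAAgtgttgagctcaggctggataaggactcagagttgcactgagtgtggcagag
Junb, chr8:84978699-84978998, minus strand: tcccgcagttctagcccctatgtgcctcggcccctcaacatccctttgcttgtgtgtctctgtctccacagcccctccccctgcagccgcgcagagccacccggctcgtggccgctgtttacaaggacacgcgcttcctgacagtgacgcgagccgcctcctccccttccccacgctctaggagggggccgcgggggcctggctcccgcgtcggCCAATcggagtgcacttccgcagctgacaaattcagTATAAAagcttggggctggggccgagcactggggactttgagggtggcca

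The motifs searched on both strands were TGANTCA, the AP-1 site, TGACNTCA and the core TGACGT that it can contain, to which CREB and ATF proteins and AP-1 bind, TATAAA for the TATA box, CCAAT for factor NF-Y, the GC box GGGCGG, and AGATAA for GATA factors. Also searched were the motif GCGNGGGCG of EGR1, which can overlap the GC box, and the CArG box of serum response factor. The Fos promoter held TGACGT from base -66 to -61, present in 7.51% of 32851 promoters of this length, and TATAAA from -33 to -28, present in 13.6%, beside a GC box from -74 to -69. The Jun promoter held TGACATCA from -45 to -38, a form of TGACNTCA found in 8.83% of promoters, and AGATAA from -8 to -3, found in 11.2%, beside CCAAT from -65 to -61 and a GC box from -89 to -84. Junb held CCAAT from -36 to -32, found in 37.4%, and its TATAAA lay at the RefSeq start itself, from base 1 to 6. GENCODE M21 starts Junb 30 bases further down, which puts the same letters at -30 to -25. Promoter entries matched 7 of the 10 genes, and Fosl1, Egr1 and Ier2 were without one. Of the 7, 5 held a GC box, against 35.7% of all promoters, and 2 (Fosb and Fosl2) the EGR1 motif, against 5.55%. These windows follow the RefSeq start. M21 starts Jund, whose window held no match, 1210 bases further down, and Fosl2 and Atf3 further up by more than the window's 300 bases. None held TGANTCA, against 7.81%, or a CArG box, against 1.63%. With motifs this rare and 7 promoters an absence says little, and sites more than 250 bases before the start were not searched. These letters are a description of the window and not shown to be bound.

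Levels fell into 3 steps. Jund, Ier2, Junb and Egr1 stood between 39.9 and 138 TPM, Fos, Fosl1 and Jun between 2 and 5, and Fosl2, Fosb and Atf3 below 1. Of the 10 genes, 7 were detected in both libraries, against 40.0% of all 21474 protein-coding genes. The 10 had a median level of 3.02 TPM (replicate 1) and 3.49 TPM (replicate 2), against 17.0 and 19.0 over the 8581 detected protein-coding genes and 0.03 in each library over all of them. In these bulk samples fewer cells carrying an RNA and less RNA in each cell cannot be told apart. All 10 genes had expected counts that were whole within 0.005 in both libraries.

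**Figure D1:**
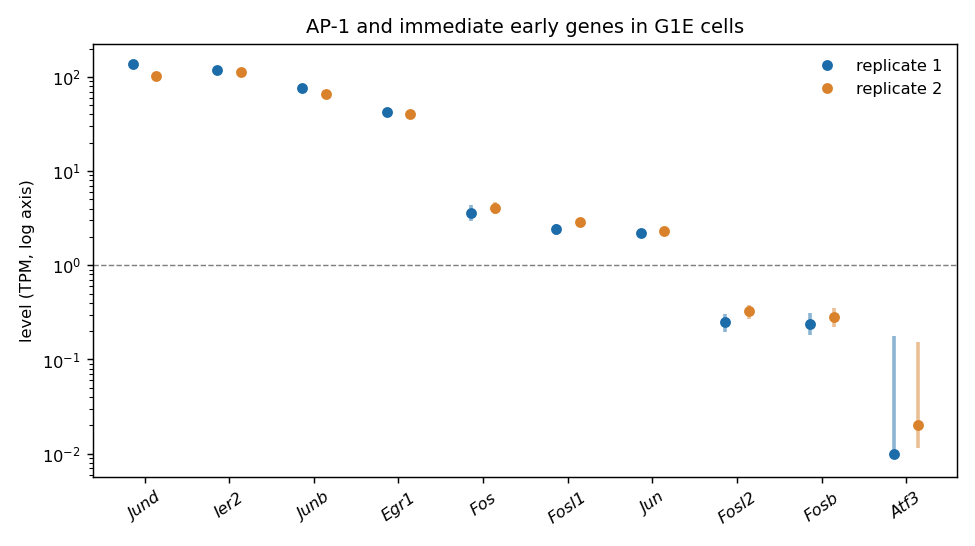
Level of each gene in TPM on a log axis, ordered by mean, for replicate 1 and replicate 2; bars are the authors' credibility intervals, which lie around the posterior mean, and the dashed line is 1 TPM. The 4 highest genes stand at 39.9 TPM or more in both libraries, and Fosl2, Fosb and Atf3 below the line.

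The JUN family was led by its broadly expressed member. Jund (ENSMUSG00000071076.5, with a coding transcript of 1 exon, on the plus strand of chromosome 8, from 70698949 to 70700616 in mm10 by GENCODE M21), whose product is the JUN protein most often present in unstimulated cells, had 138 TPM (replicate 1) and 103 TPM (replicate 2), from 21115 and 19900 expected counts. Its mean of 121 ± 24.9 TPM (SD, n = 2) exceeded that of 94.9% of protein-coding genes. The annotation behind the deposited table gave Jund a transcript of 2878 bases, the span that RefSeq also gives, whereas M21 gives 1668. If every read pair fell in the shorter model, Jund would be at 217 ± 44.5 TPM.

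Junb (ENSMUSG00000052837.5, gene span on the minus strand of chromosome 8, 84974484 to 84978718) encodes a JUN protein that often counteracts JUN on growth genes. Its coding transcript has 1 exon of 1809 bases in M21. Junb was at 75.9 and 66.3 TPM in replicate 1 and replicate 2, from 7193 and 7931 counts. Jun itself (ENSMUSG00000052684.4, 1 exon, minus strand of chromosome 4, 95049034 to 95052222), the strongest activator of the family, was at 2.18 and 2.32 TPM from 371 and 498 counts. Jund and Junb were higher in replicate 1 and Jun in replicate 2, and the 3 ranges did not overlap. Jund exceeded Jun 63.4-fold in replicate 1 and 44.4-fold in replicate 2, and Junb exceeded it 34.8-fold and 28.6-fold. Jund made up 62.0% ± 2.73 of the family's summed TPM, Junb 36.8% ± 2.49 and Jun 1.18% ± 0.243 (SD, n = 2). Jund exceeded Junb in both libraries, by 1.82-fold and 1.56-fold.

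In summed TPM the FOS family was far lower than the JUN family. The JUN family summed to 216 and 172 TPM in replicate 1 and replicate 2, against 6.54 and 7.59 TPM for the FOS family. The sums did not overlap, and their ratio of JUN to FOS was 33.1-fold and 22.6-fold. That is a log2 ratio of 4.77 ± 0.39 (SD, n = 2), many times the spread between the libraries. The single genes did overlap, since Jun, at 2.18 and 2.32 TPM, was below Fos and Fosl1 by gene TPM. The ratio of the sums therefore rests on Jund and Junb.

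Fos (ENSMUSG00000021250.9, plus strand of chromosome 12, 85473890 to 85477273), the classical signal-induced partner of JUN, was at 3.62 and 4.07 TPM in replicate 1 and replicate 2 from 153 and 294 counts. Fosl1 (ENSMUSG00000024912.5, plus strand of chromosome 19, 5447547 to 5455946), which encodes FRA1, a FOS protein without the transactivation domain of FOS, was at 2.43 and 2.91 TPM from 212 and 321 counts. By TPM over all transcripts Fos was above Fosl1 in each library, with ranges apart. The order reverses by expected counts and on the coding transcript of Fos alone, which was at 0.65 and 1.48 TPM in replicate 1 and replicate 2. Fosl2 (ENSMUSG00000029135.9, plus strand of chromosome 5, 32135801 to 32157842), which encodes FRA2, was at 0.25 and 0.33 TPM from 79 and 132 counts. Fosb (ENSMUSG00000003545.2, minus strand of chromosome 7, 19302696 to 19310051), the closest relative of Fos, was at 0.24 and 0.28 TPM from 49 and 72 counts. All 4 FOS genes had the higher TPM in replicate 2, and the ranges of Fosl2 and Fosb overlapped. Fos held 54.5% ± 1.22 of the family's TPM, Fosl1 37.7% ± 0.837, Fosl2 4.09% ± 0.371 and Fosb 3.68% ± 0.0137 (SD, n = 2), and these shares moved by less than 2 percentage points between the libraries. With the coding transcript of Fos only, an alternative chosen after seeing the data, Fosl1 led with 63.1% ± 6.98 of the family's TPM, against 23.9% ± 8.06 for Fos (SD, n = 2).

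The Fosl1 value has a limit in its position. By M21, 1163 of the 1864 bases of its transcript (62.4%) lie opposite exons of Ccdc85b, a gene on the minus strand at 65.6 and 44.9 TPM in replicate 1 and replicate 2. Whether the authors' counting used the strand is not given in the sources used here. Without it, reads within that stretch cannot be told apart by position. Expected counts of a gene can turn fractional where read pairs are divided between genes. They were fractional for some genes, such as Atf1 at 3481.92 and 5022.83 in replicate 1 and replicate 2. Those of Fosl1, 212 and 321, were whole. Whether they hold reads of Ccdc85b was not tested. Jund has an antisense gene too, Gm11175, across 877 bases (52.6%) of its M21 transcript, at 0.90 and 0.32 TPM. Junos covers 232 bases (7.28%) of Jun on the other strand, at 0.46 and 0.63 TPM. Junb, Fos, Fosb, Fosl2, Egr1, Ier2 and Atf3 had no exon bases in common with another gene in their leading transcript.

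The immediate early genes outside the AP-1 families did not stand at 1 level. Ier2 (ENSMUSG00000053560.4, 1 exon, minus strand of chromosome 8, 84661331 to 84662852), which encodes a small nuclear protein made early in growth responses, was at 117 and 113 TPM in replicate 1 and replicate 2 from 9035 and 10951 counts, or 115 ± 3.33. Egr1 (ENSMUSG00000038418.7, plus strand of chromosome 18, 34859823 to 34864984), a zinc-finger factor known for steering blood progenitors to macrophages and for keeping stem cells quiescent, was at 42.4 and 39.9 TPM from 9529 and 10773 counts, or 41.2 ± 1.72. Both stood well above Fos, which responds to many of the same signals, with Egr1 at 11.7 and 9.81 times Fos and Ier2 at 32.4 and 27.7 times in replicate 1 and replicate 2. Against the coding transcript of Fos alone, Egr1 was at 65.2 and 27.0 times and Ier2 at 180.6 and 76.1 times. The ratio of Ier2 to Egr1 was 2.80 ± 0.0358 (SD, n = 2).

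Atf3 (ENSMUSG00000026628.9, minus strand of chromosome 1, 191170296 to 191218039), a bZIP repressor induced by stress, was almost without reads. It had 1 count in replicate 1 (exact 95% Poisson interval 0.0253 to 5.57) and 2 in replicate 2 (0.242 to 7.22), intervals that cover counting error only. Its deposited TPM was 0.01 and 0.02 in replicate 1 and replicate 2.

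In order of mean level the genes ran Jund, Ier2, Junb, Egr1, Fos, Fosl1, Jun, Fosl2, Fosb and Atf3. Jund and Ier2 changed places, since Jund was higher in replicate 1 (ratio 1.18) and lower in replicate 2 (ratio 0.915). For Fosl1 over Jun the library ranges were apart, at ratios of 1.11 and 1.25, but the authors' credibility intervals met in replicate 1. Fosl2 and Fosb kept their order with overlapping ranges. By gene TPM every other pair of neighbours kept its order with ranges apart, the widest gaps being Egr1 over Fos, Jun over Fosl2 (8.72-fold and 7.03-fold) and Fosb over Atf3, which rests on the few Atf3 counts.

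The transcript tables changed the picture of Fos. Of the 10 genes, 7 had 1 transcript in the deposited annotation, and Fos had 4, Atf3 3 and Egr1 2. The full-length coding transcript (ENSMUST00000021674.6, 2108 bases, 4 exons) was given 18.1% of the gene's TPM in replicate 1 and 36.5% in replicate 2, that is 0.65 and 1.48 TPM. The larger share, 80.5% and 63.5%, went to the short model ENSMUST00000134311.1, of 631 bases and 3 exons classed as a processed transcript with no coding frame, at 2.91 and 2.59 TPM. By expected counts the division was nearer to even in replicate 1, with 71.8 read pairs for the coding transcript and 79.3 for the short model, and favoured the coding transcript in replicate 2, with 206 and 88.4. On the coding transcript alone Fos was under 1 TPM in replicate 1 and below Fosl1 and Jun in both libraries.

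Only 24 bases of the short Fos model lie outside the exons of the coding transcript. Its other 607 bases lie inside the Fos coding sequence, so the models share most of the short one. The start of the short model and the junction of exons 1 and 2 in the coding transcript are printed to show how the models part. Capitals mark the 24 bases before exon 2 of the coding transcript, and lower case is the shared exon 2. In the short model the capitals open its first exon and come from intron 1 of the coding transcript. In the coding transcript they are the end of exon 1.
Fos short model, chr12:85474911-85474970, plus strand: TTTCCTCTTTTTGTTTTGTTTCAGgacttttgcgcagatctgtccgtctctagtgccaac
Fos coding transcript, exon 1 from chr12:85474157 joined to exon 2 up to chr12:85474970, plus strand: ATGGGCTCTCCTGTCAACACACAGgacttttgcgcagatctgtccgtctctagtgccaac

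The gene's effective length, a mean over its transcripts weighted by their shares, moved with this division, at 756 bases in replicate 1 and 1022 in replicate 2. The level of Fos therefore carries the uncertainty of that division beside its counting error.

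Egr1 was divided between a pair of models with the same coding exons. The long model (ENSMUST00000064795.5, 4484 bases, 2 exons) had 78.4% and 63.9% of the gene's TPM in replicate 1 and replicate 2, while the shorter model (ENSMUST00000165033.1, 3036 bases, 3 exons) had 21.6% and 36.1%. The shorter Egr1 model starts 1384 bases downstream, and all of its bases lie within the long one, so the models differ only outside the coding part. For Egr1 as for Fos, replicate 2 had the larger share of the model that was lower in replicate 1. The Atf3 counts fell on different transcripts in replicate 1 and replicate 2 and were too few for a share.

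**Figure D2:**
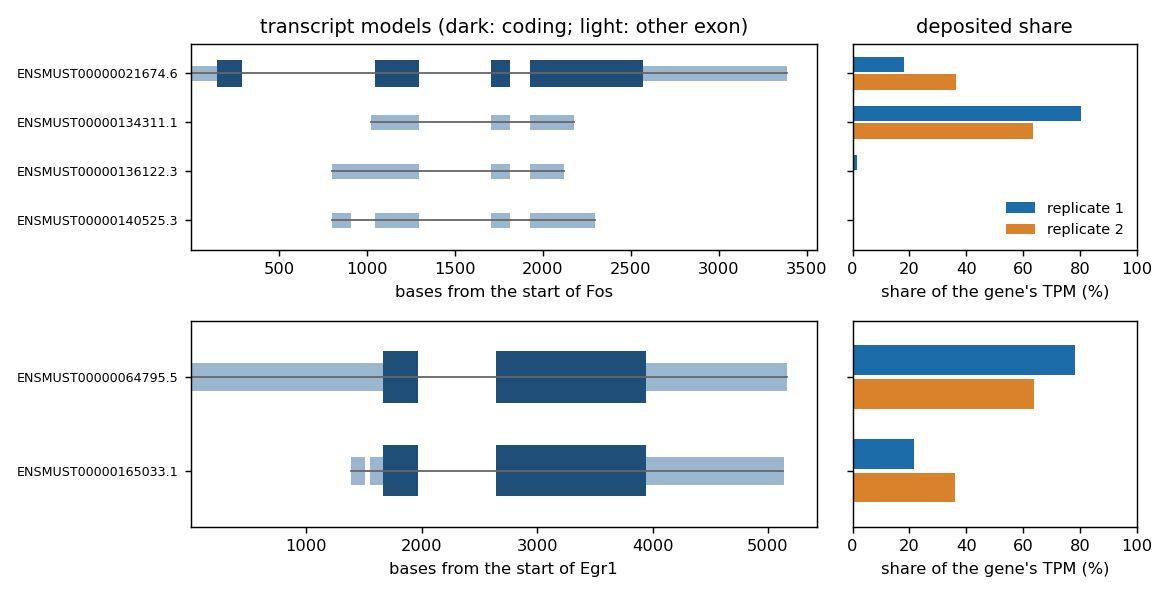
Left, the GENCODE M21 models of the Fos and Egr1 transcripts by distance in bases from the gene start, with coding exons dark and other exon parts light; right, each transcript's share of its gene's TPM in replicate 1 and replicate 2. The short Fos model holds 80.5% and 63.5% of the Fos TPM, and the long Egr1 model holds 78.4% and 63.9% of the Egr1 TPM.

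Several features that played no part in choosing the genes were shared. The leading coding transcript had a GC content above the median of 49.8% over 21373 protein-coding genes in all 10, with Jund at 67.1%, Junb at 62.6%, Ier2 at 60.9%, and Fos and Atf3 lowest at 51.9% and 50.2%. Of the 10, 4 had a coding transcript of 1 exon (Jun, Junb, Jund and Ier2), against 10.6% of protein-coding genes, and 3 of these 4 were the highest in level. AU-rich elements, sequences of the 3′ untranslated region that recruit RNA-decay factors and are textbook features of short-lived RNAs, were counted as the pentamer ATTTA. Its density was above the median of 0.979 per kilobase of 3′ untranslated region in 8 of 10, with Fos at 4.91, Junb at 4.12 and Jun at 3.24, while Ier2 had none in 755 bases and Fosb 1 in 2145. The strict nonamer TTATTTATT, found in 6.29% of 19130 genes with such a region, occurred in Fos and Fosl2. These sites are printed with the nonamer in capitals, as the elements best known for instability in this family.
Fos, chromosome 12, base 655 of 815 in the 3′ untranslated region: tgttttcaatTTATTTATTaagatggatt
Fosl2, chromosome 5, base 3692 of 4653 in the 3′ untranslated region: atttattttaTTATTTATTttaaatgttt
Junb and the coding transcript of Fos had similar pentamer densities. Junb was at 71.1 ± 6.83 TPM (SD, n = 2), and that Fos transcript at 0.65 and 1.48 TPM in replicate 1 and replicate 2. Most of the TPM of Fos, 3.85 ± 0.318 (SD, n = 2), went to the short model, which ends inside the coding sequence. RNA stability was not measured here, and a link between density and level was not tested.

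The libraries were compared to see how far each value can be trusted. Counts were scaled by TMM, which sets the bulk of genes level, and tested by a two-sided exact conditional binomial test over 11636 genes with Benjamini-Hochberg adjustment. That test knows counting error only and compares these libraries, not conditions. Of 9 genes tested (Atf3 had too few counts), none was called at an adjusted p under 0.05 and at least 2-fold, against 5.77% of all genes tested. With no fold requirement 5 passed, against 64.8% of all genes, and 5 had an unadjusted p under 0.05. edgeR's exact test, whose dispersion comes from these same libraries, called none of the 9 and 0.980% of all genes.

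Of the 5 that passed, 4 were higher in replicate 1. Of the 7541 that passed over all genes, 3772 were higher in replicate 1 and 3769 in replicate 2. The log2 ratio of replicate 1 over replicate 2 was 0.58 for Jund (95% counting interval 0.56 to 0.61), 0.36 for Junb (0.31 to 0.40), 0.32 for Egr1 (0.28 to 0.36) and 0.22 for Ier2 (0.18 to 0.26). Fos went the other way at -0.44 (-0.73 to -0.16, adjusted p = 0.00385 by the exact conditional binomial test). Jun at 0.07, Fosl1 at -0.10, Fosl2 at -0.24 and Fosb at -0.06 had intervals that include 0. The median absolute log2 ratio was 0.24 over the 9 genes and 0.27 over all genes tested. Scaled by the library totals instead, the median log2 ratio over all genes was -0.13, against -0.01 under TMM. With that scaling Jun was at -0.04, while the 5 that passed kept their direction.

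**Figure D3:**
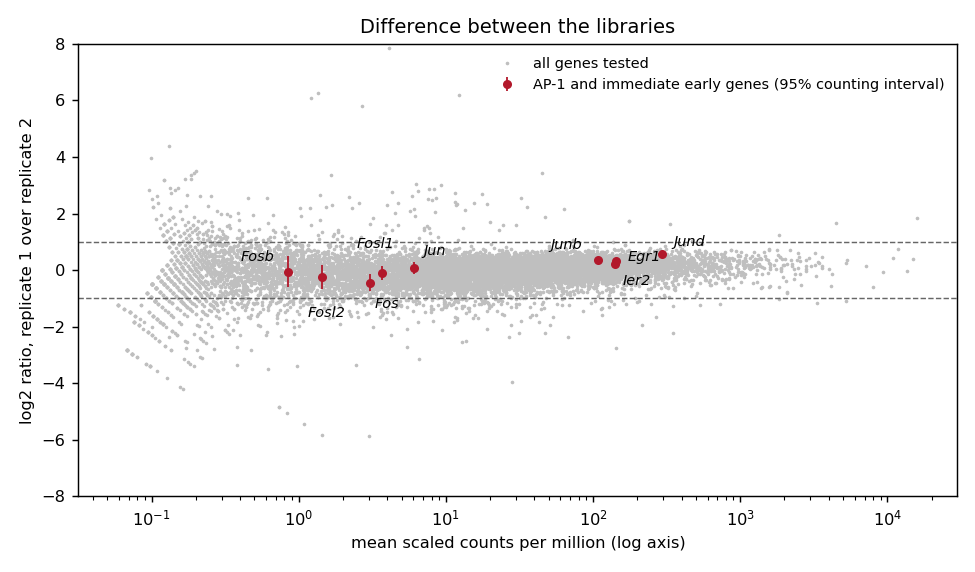
Log2 ratio of replicate 1 over replicate 2 against the mean scaled counts (CPM, log axis) for all 11636 genes tested (grey) and the 9 tested AP-1 and immediate early genes (red, with 95% counting intervals); dashed lines mark 2-fold. All 9 lie between the lines, with Jund highest at 0.58 and Fos lowest at -0.44.

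The other parts of the pathway were described by lists, each as the number detected and its 4 highest genes. These numbers stand against 40.0% detected over all protein-coding genes. Of 13 other bZIP genes whose products can pair with AP-1 proteins or share their sites, 6 were detected, namely the CREB and ATF genes Atf1 (52.8 ± 11.4 TPM), Creb1 (16.1 ± 4.53), Atf7 (14.1 ± 0.417) and Atf2 (12.7 ± 2.88) and, lower, Crem and Atf6. The other 7 were below 1 TPM in both libraries, and the list's median was 0.05 and 0.09 TPM in the same order of replicates. Among them were Batf, Batf2 and Batf3, AP-1 partners of lymphoid and dendritic cells, with Batf3 at 1 and 4 counts in replicate 1 and replicate 2, Batf at 0 and 2, and Batf2 at 0 in both, which allows up to 3; they were picked out after their values were seen.

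The other immediate early genes also ranged from silent to high. Of 42, 23 were detected and 19 were below 1 TPM in both libraries, with list medians of 1.91 and 2.48 TPM in replicate 1 and replicate 2. The highest were Zfp36l2, which encodes an RNA-decay factor that binds AU-rich elements, at 1058 ± 234 TPM, the growth regulator gene Myc at 812 ± 53.2, Zfp36l1, a relative of Zfp36l2, at 372 ± 14.8 and the stress gene Gadd45a at 114 ± 5.54 (SD, n = 2). The relatives of Egr1 were low, with Egr2 at 0.090 ± 0.0283 TPM (SD, n = 2), Egr3 at 0.010 ± 0.0141 and Egr4 listed at 0, and they were picked out after their values were seen.

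The factors that act on immediate early promoters were mostly present. Of 14, 12 were detected, led by Srf, which binds the CArG box, at 66.3 ± 1.24 TPM, the CREB coactivator Crtc2 at 64.5 ± 8.75, Atf1 and the acetyltransferase Ep300 at 31.9 ± 2.51. Of 23 RAS and MAP kinase pathway genes, 18 were detected, led by the kinase genes Map2k2 (280 ± 53.0), Map2k3 (203 ± 15.2), Map2k7 (132 ± 7.25) and Mapk3 (66.8 ± 3.78), which encode MEK2, MKK3, MKK7 and ERK1. All 13 regulators of AP-1 or EGR1 activity or of AU-rich RNA turnover were detected. Hnrnpd (526 ± 121) and Khsrp (247 ± 5.95) encode proteins that bind AU-rich RNA, Men1 (175 ± 41.6) encodes menin, which binds JUND, and Nab2 (98.6 ± 7.93) a corepressor of EGR1. Nab2 exceeded Egr1 in both libraries, at 104 and 93.0 TPM against 42.4 and 39.9 in replicate 1 and replicate 2. Nab1, also on this list, was below Egr1, at 13.2 and 11.7 TPM in the same order.

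Textbook AP-1 target genes were mostly below 1 TPM, as were most protein-coding genes, of which 40.0% were detected. Of 15, 3 were detected, namely Vim, the intermediate filament gene, at 496 ± 74.8 TPM, Hmox1, which breaks down haem, at 11.7 ± 1.58, and Cd44, a surface receptor, at 4.21 ± 1.91 (SD, n = 2). The next highest, the protease gene Mmp9, was at 0.690 ± 0.0849 TPM, and 10 of the 15 had 0 counts in both libraries, which allows up to 3 counts a library. These genes are known as targets mostly from fibroblasts and immune cells, and no AP-1 binding or activity was measured here.

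**Figure D4:**
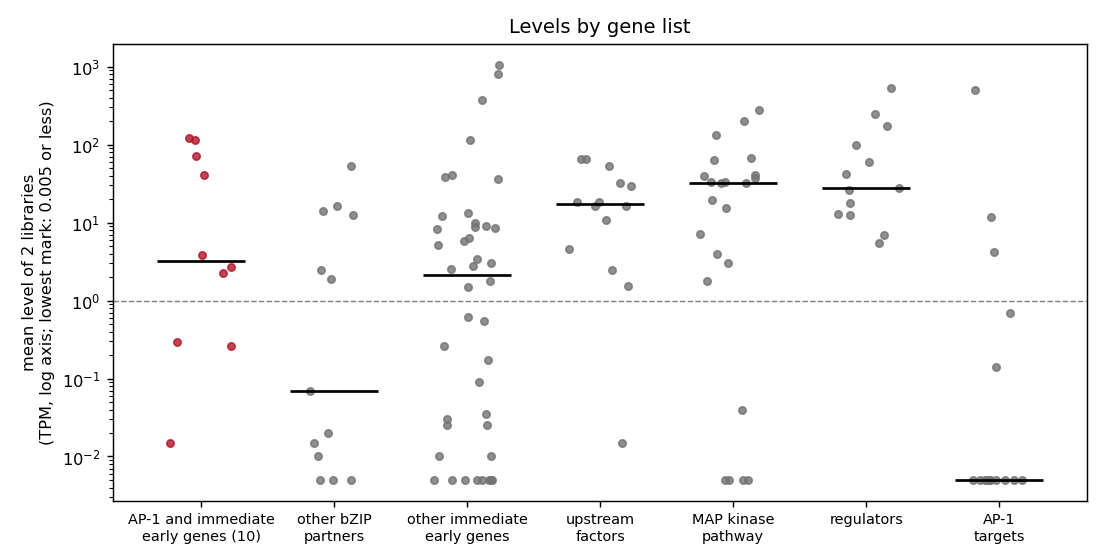
Mean TPM of the 2 libraries on a log axis for each gene of the 10 described here (red) and of the 6 context lists (grey); black lines are medians of the list, the dashed line is 1 TPM and values of 0.005 or less are drawn at 0.005. The regulators all lie above 1 TPM, and 12 of the 15 AP-1 targets lie below it.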

How the data were processed

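Polyadenylated RNA of G1E cells was measured in 2 libraries of 1 group. Per the deposited descriptions, each library was aligned to the transcriptome and quantified separately (assembly mm10, annotation M4); aligner and counter: not given in the sources used here. The deposited expected counts are estimated read pairs per gene or transcript. The authors' TPM values are scaled by effective length and library total, and their FPKM values by effective length and fragments, per the file headers. The deposited percent of the gene's TPM gives each transcript's share. Credibility intervals of the TPM are the authors', at a level that is not stated.

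Of 43346 gene entries 98.0% were matched to GENCODE M21, on the same assembly, by Ensembl identifier. A further 26345 entries that are not Ensembl genes held 1 count in all and were left out. Of 159 list entries, 4 were matched through a RefSeq synonym. Levels are mean and SD of TPM. Expected counts were rounded for tests; genes with 10 or more counts in either library were tested by the exact conditional binomial test with TMM totals (factors 0.960 and 1.04) from edgeR 4.0.16, with DESeq2 1.42.0 size factors as an alternative (R 4.3.3, Python 3.11.15, SciPy 1.17.1, pandas 2.3.3, NumPy 2.4.6, matplotlib 3.10.9). A count of 0 in a library was set to 3 in log2 ratios only. Sequences came from RefSeq (GRCm38.p6) and M21. Without molecular identifiers, PCR copies of a molecule may be counted, so intervals cover counting error only.

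Tested on simulated data drawn at the observed levels and totals of replicate 1 and replicate 2 (11536 genes a run), the procedure called 91.9% of the 197 genes given a 2.5-fold change and 95.4% of the 197 given a 4-fold one. It also called 0 and 4 unchanged genes in these runs. The simulated counts held counting error only, which is what the test assumes. Its behaviour under a wider spread between libraries was not tested. The genes and lists were chosen with earlier results of these data known. Named genes are the 10, transcripts with 5% or more of their gene, the 4 highest of each list and 4 markers; others named are pointed out or complete a count. Alternatives covered the value used, thresholds, scaling, filters and leaving out each library.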

Additional observations from a re-analysis of the deposited data

How the results depend on the processing

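With a detection limit of 5 TPM the number of genes detected was 4 in place of 7, and with 0.5 TPM, posterior mean TPM or either library alone it was 7. Counting protein-coding transcripts only, an alternative chosen after seeing the data, it was 6, as Fos was lost. Without length scaling the share of Jund in the JUN family was 71.9% and that of Fosl2 in the FOS family 16.1%; these differ by construction, as lengths differ. With the shorter M21 model of Jund, also chosen after seeing the data, the Jund share was 74.5% and the log2 ratio of JUN to FOS 5.35, and with the protein-coding transcript of Fos only, likewise, that ratio was 5.51. On that transcript the shares in the FOS family were 23.9% for Fos, 63.1% for Fosl1 and 6.80% for Fosl2, and the log2 ratio of Fos to Fosl1, 0.53 over all transcripts, reversed to -1.44. By expected counts with no length scaling, added after seeing the data for these genes, it reversed to -0.30, with 33.5% for Fos and 41.1% for Fosl1. The log2 ratios of Egr1 and Ier2 to Fos, 3.42 and 4.91 over all transcripts, were 5.39 and 6.87 on the coding transcript of Fos, and 5.58 and 5.55 by counts. Adding 1 TPM to each family sum gave a log2 ratio of JUN to FOS of 4.59. Leaving out each library gave 60.0% to 63.9% for the Jund share and 4.50 to 5.05 for the log2 ratio of JUN to FOS. The shares in the FOS family were then 3.82% to 4.35% for Fosl2, 53.6% to 55.4% for Fos and 37.2% to 38.3% for Fosl1. Posterior mean TPM moved 9 of 10 gene levels by less than the spread between libraries and put Atf3 at 0.075 TPM.

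Between the libraries none of the 10 was called under the scalings, count minimums, posterior mean counts or edgeR test run (Atf3 untested where a minimum applied), but 5 were with no fold requirement. Over all genes 671 were called, 7541 with no fold requirement, 422 with a minimum of 50 counts, which tests fewer genes, and 114 by edgeR, which adds a dispersion of 0.224 as coefficient of variation. No paired analysis was possible because the libraries form 1 group. Depth limits Atf3 and, less, Fosb and Fosl2.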
